A study of Mus musculus with 8 samples.

Results

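The E proteins and their Id inhibitors were followed through RNA-seq libraries of mouse CD8 single-positive (CD8SP) thymocytes that carried or lacked Ndrg3. The 6 genes examined, of 47937 in the deposited count table, were the 3 E protein genes Tcf3, Tcf4 and Tcf12 and the 3 Id genes Id1, Id2 and Id3, taken by gene symbol. The sorted cells were TCRb+ MHC-I high CD8SP thymocytes from mice 6 to 7 weeks old. The control group was Ndrg3 +/fl;Lck-cre+ and the knockout group was Ndrg3 fl/fl;Lck-cre+, with 4 libraries each and 1 library per mouse. Both groups therefore carried the Lck-cre transgene, in which the Lck promoter drives Cre in cells of the T lineage, and the control mice also carried 1 floxed Ndrg3 allele. A mouse without a floxed allele or without Cre was not analysed here, and cells other than the sorted thymocytes were not measured.

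E proteins are basic helix-loop-helix transcription factors that bind DNA as dimers at the E-box, a short motif. Id proteins carry the helix-loop-helix but lack the basic region, so they pair with E proteins and keep them off DNA, and the amount of E protein activity in a thymocyte depends on both sides. In developing T cells, E proteins uphold the gene programme of immature thymocytes and restrain passage through selection, while signals through the pre-TCR and the TCR induce Id3. Id2 and Id3 together limit innate-like and follicular fates, and in mature CD8+ T cells Id2 is associated with effector cells and Id3 with memory cells.

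The E-box is written CANNTG, which reads the same on both strands. It was searched in RefSeq promoter windows of the build GRCm38.p6 that ran from 250 bases before to 50 bases after each start. Windows were found for 4 of the 6 genes, namely Tcf3, Tcf12, Id2 and Id3. The sites below are shown because they are the motif that the proteins of this family bind, in the genes that encode them. The 6 letters of the E-box are in capitals, each site is read 5′ to 3′ on the minus strand, on which all 3 of these genes lie, and flanking bases are in lower case.
Id2, chr12:25096271-25096300: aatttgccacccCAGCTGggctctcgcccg
Tcf3, chr10:80433672-80433701: agtgggcgtggtCACTTGggggcgtggctt
Tcf12 window 1, chr9:72112042-72112069: agatgctgccCAGCTGcgtccccgtcgc
Tcf12 window 2, chr9:72111166-72111195: gagcgagtgagtCACTTGgtctccgggtcg
Tcf12 window 3, chr9:71896084-71896113: tttgagtagttcCATGTGtgaatgcatagt
Distances are from the first base of the E-box to the start that lies 250 bases into each window. The Id2 site lay 196 bases before this start and the Tcf3 site 54 bases before. Those shown for Tcf12 lay 240 bases before it in window 1, 18 bases after it in window 2, and 5 bases before it in window 3. The Id3 window, chr4:136143572-136143871, held 0 E-boxes. An E-box of any kind was present in 72.3% of the 32851 windows of all genes and the form CAGCTG in 16.3%, so the matches describe these letters and are not evidence of binding.

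Totals per library ranged from 21126698 to 32668081 counts, and the floor of 3 counts corresponded to 0.0918 to 0.142 CPM, counts scaled to the library total. As a check of the labels, Ndrg3 (chr2:156927345-156992056, GRCm38, minus strand) had normalized counts of 2294, 2359, 2349 and 2342 in control replicates 1 to 4 and 1460, 1402, 1537 and 1601 in knockout replicates 1 to 4, a log2 fold change of -0.64 (SE 0.0526, edgeR adjusted p = 1.036e-05). The counts cover the whole gene, while the paper states that the floxed part was a single critical exon. By immunoblot the paper also reports efficient loss of Ndrg3 protein in thymocytes of the knockout genotype. The 14 CD8SP markers summed to 8438 to 8998 CPM in control and 8345 to 8727 CPM in knockout libraries, and 0 of them passed the test. Among them Klf2, Ccr7 and S1pr1, which act in the egress and homing of mature T cells, had log2 fold changes of -0.26, -0.26 and -0.19 (edgeR adjusted p = 0.130, 0.135 and 0.203). Others of the 14 were higher, with Themis at 0.16 (edgeR adjusted p = 0.183) and Cd3e and Cd3g at 0.11 and 0.10 (0.67 and 0.62). The mitochondrial share of counts was 0.636% to 0.820% in control and 0.571% to 0.713% in knockout libraries. Y-linked transcripts were at 340.5 to 416.3 CPM in control 2, knockout 2 and knockout 3 and at no more than 0.0752 CPM in the other 5 libraries, so values are also given within these sets where they touch a result. Of the other cell types examined, gamma-delta, NK and B cell markers had sums that did not overlap between the groups. The 6 gamma-delta genes summed to 14.06 to 17.27 CPM in control and 54.55 to 74.55 CPM in knockout libraries, with Tcrg-C1, Tcrg-C2 and Tcrg-C4 higher in knockout, while Trdc, the constant gene of the delta chain, had a log2 fold change of -0.03. The 6 NK markers summed to 13.19 to 19.14 CPM in control and 6.87 to 9.19 CPM in knockout libraries, and Ncr1, Klra8 and Klra4 were at 0 in all 8. The 2 tested NK markers went in opposite directions. Eomes, most of the sum, had means of 15.21 CPM in control and 6.364 CPM in knockout, and Klrb1c of 0.2997 and 1.78 CPM. B cell markers summed to 11.28 to 13.73 and 8.79 to 9.71 CPM, mostly Cd79b (edgeR adjusted p = 0.0529), with Ms4a1 at 0. In the same order, sums were 7.30 to 11.03 and 10.05 to 17.68 CPM for CD4 lineage, 47.7 to 55.74 and 45.76 to 57.59 for double-positive, 3.79 to 5.75 and 4.75 to 5.01 for myeloid, and 2.03 to 3.12 and 1.47 to 2.76 for thymic epithelial markers. Stromal and endothelial markers gave 157.6 to 178.2 and 148.1 to 164.2 CPM, mostly Pecam1, and erythroid markers at most 0.0341 CPM. In these lists 0 markers passed the test.

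The 6 genes fell into 3 pairs by transcript level, expressed in TPM, counts per kilobase of exon scaled to the same sum in every library. Tcf3 and Id3 were the most abundant, with mean levels of 191 TPM (range 177.9 to 205 over the 8 libraries) and 190.4 TPM (161.8 to 237.2). Id2 and Tcf12 followed at 68.6 TPM (49.92 to 81.56) and 67.4 TPM (55.71 to 77.24). Tcf4 and Id1 were far lower, at 1.59 TPM (1.328 to 1.813) and 1.41 TPM (0.834 to 1.941). The ranges overlapped within each pair and were separate between pairs, so the order within a pair was not larger than the spread between libraries. Among the 14633 tested genes ranked by level, Tcf3 was at position 719, Id3 at 722, Id2 at 2581, Tcf12 at 2646, Tcf4 at 13007 and Id1 at 13158. Id4, the remaining Id gene, had 0 counts in every library.

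The position of Tcf12 and Tcf4 depended on the length used. Their merged exons span 15529 and 27382 bases, far more than 1 transcript does. With the mean length of protein-coding transcripts in place of merged exons, an alternative chosen after seeing the data, the levels in CPM per kilobase were 82.9 for Tcf3, 79.3 for Id3, 68.4 for Tcf12, 35.6 for Id2, 4.43 for Tcf4 and 0.462 for Id1. On that scale Tcf12 (59.28 to 77.14) lay above Id2 (25.41 to 44.22) in every library, and Tcf4 above Id1. Tcf3 had the highest mean on both scales, and the range of Id3 (65.55 to 93.89) overlapped those of Tcf3 and Tcf12.

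In the comparison of knockout with control, all 6 genes passed the filter on low counts and 0 of 6 reached an adjusted p under 0.05 in the edgeR test, against 1.15% of all tested genes (168 of 14633, 116 higher and 52 lower in knockout). At an unadjusted p under 0.05 there were 3, beside 1588 of all 14633 tested genes, with Id3 and Id2 at lower mean values and Tcf12 at a higher mean value in knockout, and with DESeq2 1 gene, Id3, passed. In normalized counts the groups did not overlap for 1 of the 6, Id3, against 7.04% of all tested genes. The plot of normalized counts by library shows the single values.

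**Figure D1:**
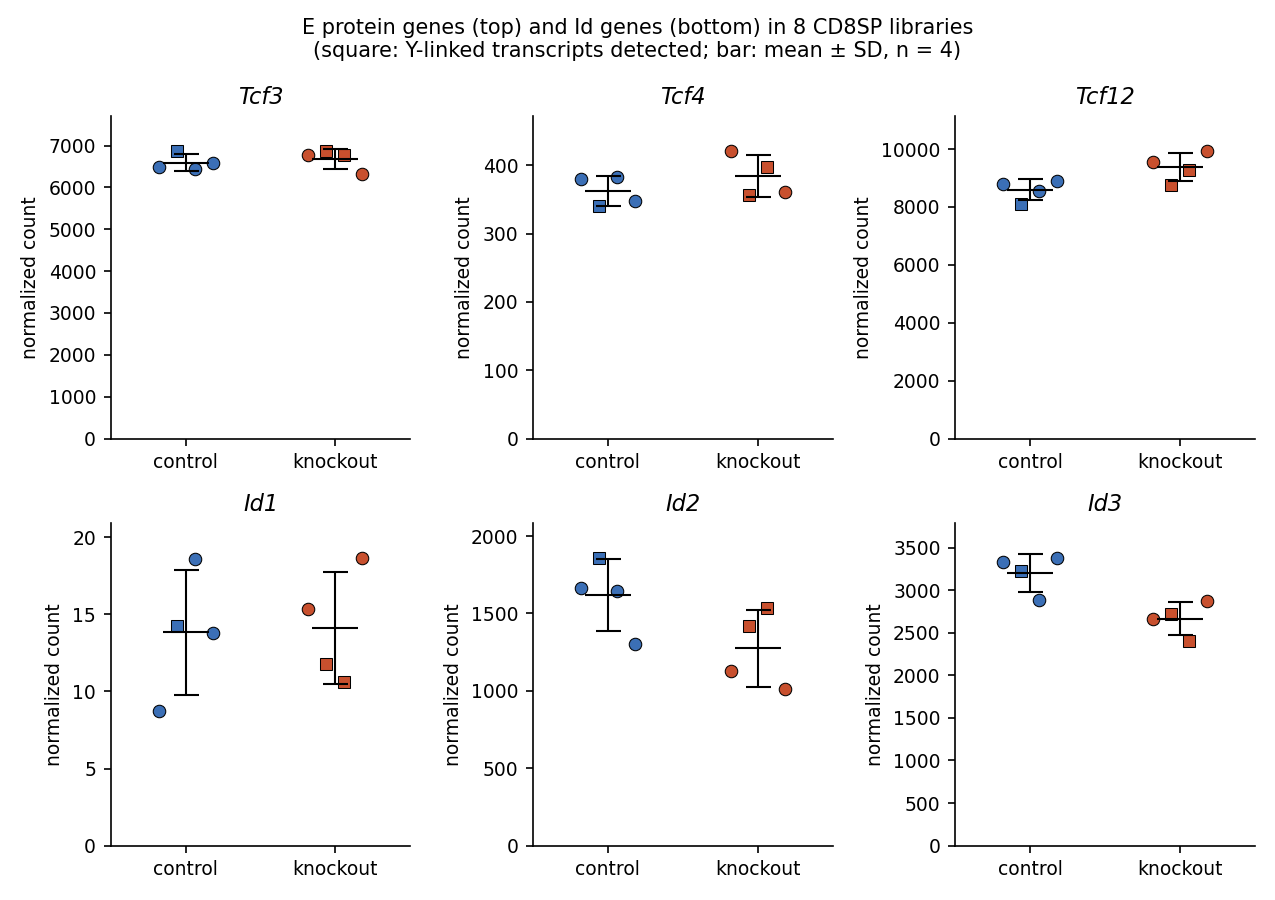
Normalized counts (scaled by the TMM-scaled library size, linear axis from 0) of the 6 genes in 4 control (blue) and 4 knockout (red) libraries. Bars give the mean and SD of each group, and squares mark libraries with Y-linked transcripts. The 4 knockout values of Id3 lie between 2405 and 2873, all below the lowest control value of 2886, while the groups overlap for the other 5 genes.

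Id3 (ENSMUSG00000007872.3, chr4:136143497-136145755, plus strand) encodes the Id protein that TCR signals induce in thymocytes. Its normalized counts were 3330, 3221, 2886 and 3378 in control replicates 1 to 4 and 2656, 2724, 2405 and 2873 in knockout replicates 1 to 4. On this scale every knockout library was below every control library, with the narrowest gap between control 3 and knockout 4. Without TMM scaling the groups overlapped, at 100.4 CPM in control 3 and 101.2 CPM in knockout 4. In TPM they overlapped as well, with control 3 at 188.9, control 2 at 192.4 and knockout 4 at 193.6. The means were 3204 ± 221.5 and 2665 ± 195.2 (SD, n = 4 each). The log2 fold change was -0.27 (SE 0.0642, 95% interval -0.40 to -0.13), a difference of -16.8% with an interval from -24.4% to -8.49%. With edgeR's quasi-likelihood test p was 9.841e-04 and the adjusted p 0.0717, at position 201 of 14633 by p, so Id3 did not pass the threshold. On normalized counts the 2-sided exact permutation test over the 70 ways to divide the libraries gave p = 0.0286, the smallest value that 4 against 4 can give. DESeq2 gave an adjusted p of 0.0236, and leaving out control 3, the lowest control value, gave -0.31 with an edgeR adjusted p of 0.0348. Of the 8 fits that each left out 1 library, this was the 1 that passed, and adjusted p reached 0.227. Id3 did not pass with RLE normalization (edgeR adjusted p = 0.0749) or with at least 10 counts in every library (0.0855).

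Within the libraries without Y-linked transcripts, Id3 was at 2886 to 3378 in 3 control and 2656 to 2873 in 2 knockout libraries. Within those with Y-linked transcripts it was at 3221 in the single control and 2405 to 2724 in 2 knockout libraries. The knockout values were lower in both sets, and with detection of Y-linked transcripts as a covariate the adjusted p of Id3 was 0.0429. The gamma-delta marker sum was higher in every knockout library than in any control library. Conversely the NK sum, mostly Eomes, and the B cell sum were lower in every knockout library. The part of these sums in the Id3 difference was not tested. In sorted bulk populations, fewer cells that express a gene and less of its RNA in each cell cannot be told apart.

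Id2 (ENSMUSG00000020644.8, chr12:25093799-25097140, minus strand) encodes the inhibitor that prevails in effector CD8+ and NK cells. Its normalized counts were 1666, 1859, 1648 and 1303 in the control and 1129, 1420, 1538 and 1009 in the knockout replicates. Control 4 was lower than knockout 2 and knockout 3, so the groups overlapped. The means were 1619 ± 231.2 and 1274 ± 246.7 (SD, n = 4 each), the widest relative spread among the 4 more abundant genes. Id2 differed by -0.34 on the log2 scale (SE 0.1495, 95% interval -0.68 to -0.01, edgeR adjusted p = 0.453), and the exact permutation test gave p = 0.114. A larger absolute log2 fold change than that of Id2 was seen in 9.51% of tested genes and than that of Id3 in 14.6%.

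Part of the spread of Id2 went with Y-linked transcripts. In both groups the libraries with Y-linked transcripts held the highest Id2 values, at 1859 in control and at 1420 to 1538 in knockout. Without Y-linked transcripts the values were 1303 to 1666 in 3 control and 1009 to 1129 in 2 knockout libraries, so knockout was below control within each set. The NK marker sum, at 13.19 to 19.14 CPM in control and 6.87 to 9.19 CPM in knockout libraries, was also lower in knockout. Most of that sum was Eomes, while Klrb1c was higher in knockout, and the part of NK cells in the Id2 values was not tested. With Y-linked detection as a covariate the log2 fold change was -0.46 and the adjusted p 0.0103.

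Id1 (ENSMUSG00000042745.9, chr2:152736251-152737410, plus strand), an Id gene better known from stromal, stem and progenitor cells, was barely detected. Its raw counts were 9, 10, 19 and 13 in control and 16, 13, 11 and 21 in knockout libraries. The log2 fold change of 0.04 had a 95% interval from -0.66 to 0.74 (SE 0.327, edgeR adjusted p = 0.984), which spans differences from -36.9% to 66.5%. A change within that interval was not detectable at this depth, and the sign turned when control 1 (-0.14), knockout 1 (-0.01) or knockout 4 (-0.13) was left out.

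Tcf12 (ENSMUSG00000032228.16, chr9:71842688-72111871, minus strand) encodes HEB, the E protein that acts with the Tcf3 products in thymocytes. Its normalized counts were 8808, 8087, 8559 and 8896 in the control and 9556, 8773, 9281 and 9939 in the knockout replicates. Knockout 1, 3 and 4 were above every control library, and knockout 2 was below control 1 and control 4. The means were 8587 ± 362.6 and 9387 ± 490.5 (SD, n = 4 each). On the log2 scale knockout differed by 0.13 (SE 0.0539, 95% interval 0.01 to 0.24, edgeR adjusted p = 0.401), or 9.30% in favour of knockout, and the exact permutation test gave p = 0.0857. In contrast to Id2, the libraries with Y-linked transcripts held the lowest Tcf12 value of the control group (8087) and the 2 lowest of the knockout group (8773 and 9281). Knockout was above control within both sets, with a log2 ratio of 0.155 without Y-linked transcripts (3 control, 2 knockout libraries). With them it was 0.159, which rests on control 2 as the single control beside 2 knockout libraries. Several small annotated genes lie within the Tcf12 locus on the same strand, and reads over them cannot be assigned with certainty.

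Tcf3 (ENSMUSG00000020167.14, chr10:80409514-80433647, minus strand) encodes the E2A proteins E12 and E47, the main E protein activity of lymphocyte progenitors. Its normalized counts were 6483, 6873, 6430 and 6583 in control and 6779, 6857, 6764 and 6313 in knockout libraries. The lowest value was in knockout 4 and the highest in control 2, so the knockout values lay inside the control range except at the lower end. The log2 fold change was 0.02 (SE 0.0482, edgeR adjusted p = 0.921), and its 95% interval corresponded to differences from -5.69% to 8.84%. Of the 6 genes Tcf3 had the narrowest interval.

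Tcf4 (ENSMUSG00000053477.16, chr18:69343356-69689079, plus strand) encodes E2-2, the E protein of plasmacytoid dendritic cells. Its normalized counts were 380.4, 339.9, 383.1 and 347.2 in control and 421.1, 356.2, 397.3 and 360.8 in knockout libraries, and the groups overlapped. Tcf4 had a log2 fold change of 0.08 (SE 0.0899, edgeR adjusted p = 0.803) with an interval from -7.55% to 20.75%. The 6 markers of plasmacytoid dendritic cells summed to 150 to 156.3 CPM in control and 133 to 151.7 CPM in knockout libraries. Nearly all of that was Pacsin1 (126 to 149.7 CPM), while Siglech, a defining marker of these cells, was at 0 in 7 of 8 libraries.

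**Figure D2:**
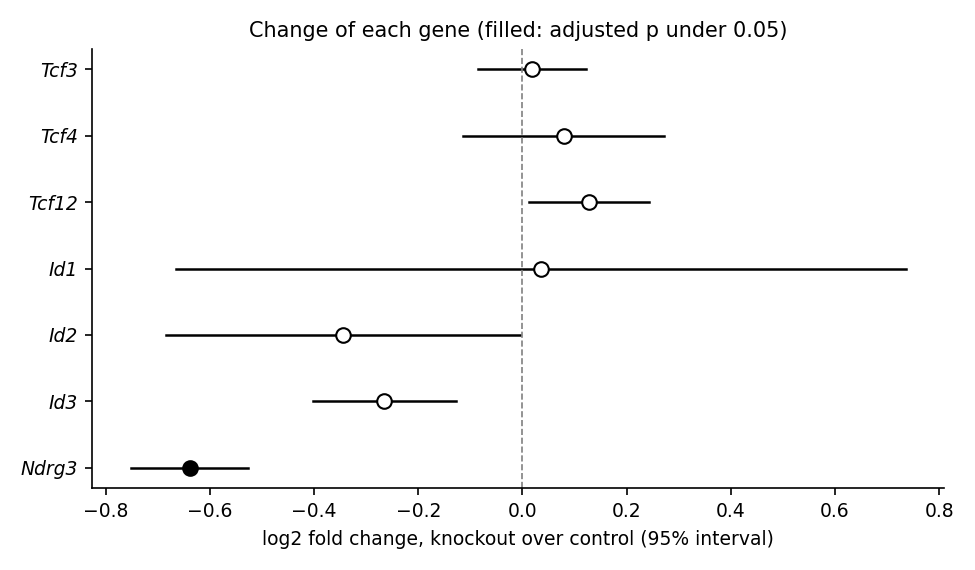
Log2 fold change of knockout over control (points) with 95% intervals (lines) for the 6 genes and for Ndrg3, with filled points for an edgeR adjusted p under 0.05. Only Ndrg3 is filled, the intervals of Id2 and Id3 lie below 0, that of Tcf12 lies above 0, and that of Id1 is the widest.

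The sum of the Id genes was set against the sum of the E protein genes in each library, as a description without a test, since proteins and not transcripts form the inhibited dimers. The E protein genes summed to 242.3, 239.1, 252.8 and 278.6 TPM in control and 272.3, 251.9, 275.5 and 267.5 TPM in knockout libraries. The Id genes summed to 282.6, 275.3, 270 and 305.9 TPM in control and 231, 234, 238.9 and 245.4 TPM in knockout libraries. The E sums overlapped between groups and the Id sums did not. The Id to E ratio was 1.166, 1.151, 1.068 and 1.098 in the control and 0.849, 0.929, 0.867 and 0.918 in the knockout libraries, so that all 4 control libraries were above 1 and all 4 knockout libraries below 1. The mean ratio was 1.121 ± 0.0457 in control and 0.891 ± 0.0388 in knockout (SD, n = 4 each), and the knockout mean was 0.795 of the control mean. That quotient was 0.795 among libraries without Y-linked transcripts (3 control, 2 knockout). It was 0.780 among those with them, where control 2 was the single control beside 2 knockout libraries. Leaving out single libraries moved the quotient over all libraries between 0.782 and 0.807.

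The level of the ratio against 1 rested on the length by which counts were divided. With the mean length of protein-coding transcripts the ratio was 0.795 to 0.881 in control and 0.617 to 0.696 in knockout libraries, all below 1, and the quotient of the means was 0.781. With raw counts and no division by length the means were 0.311 in control and 0.240 in knockout and the quotient was 0.773. The separation of the groups was present on all 3 scales, and the crossing of 1 on the first alone.

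**Figure D3:**
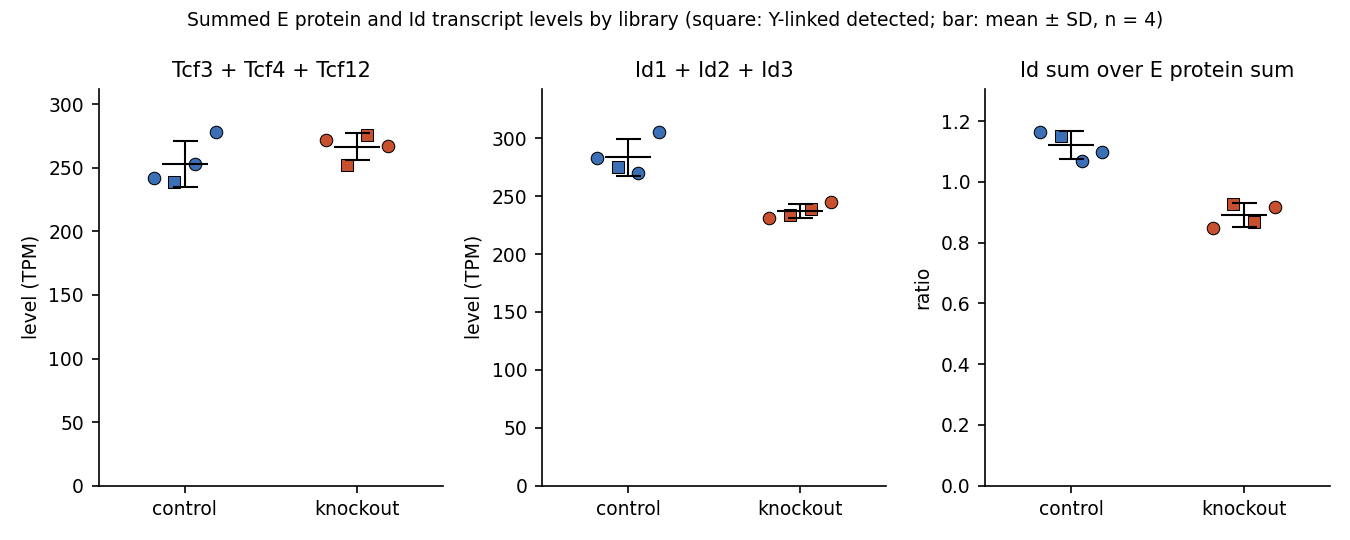
Summed level of Tcf3, Tcf4 and Tcf12 (left) and of Id1, Id2 and Id3 (middle) in TPM and the ratio of the Id sum to the E protein sum (right) in each library, with group mean and SD as bars and squares for libraries with Y-linked transcripts. The ratio lies between 1.068 and 1.166 in the 4 control libraries and between 0.849 and 0.929 in the 4 knockout libraries.

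Within each side, the makeup was similar in both groups. Id3 made up 72.6% ± 3.6 of the Id sum in control and 73.6% ± 4.81 in knockout, and Id2 made up 26.9% ± 3.55 and 25.8% ± 4.96 (SD, n = 4 each). Tcf3 made up 74.2% ± 1.28 and 72.8% ± 1.69 of the E protein sum, Tcf12 25.2% ± 1.25 and 26.6% ± 1.69, and Tcf4 0.603% and 0.617%. These differences were smaller than the SD of the groups for the Id genes and Tcf4, and about as large as it for Tcf3 and Tcf12. Across the 8 libraries, log2 CPM of Tcf12 and Id2 had a Pearson r of -0.887, the farthest from 0 among the 15 pairs of the 6 genes. The points share the contrast of the groups, and in each group the libraries with Y-linked transcripts are at the upper end for Id2 and the lower end for Tcf12.

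Cofactors of E proteins were read next, from a list of 26 genes for co-activators, co-repressors, adaptor partners and regulators of E or Id protein stability. Of these 22 were tested, 2 were higher and 0 lower in knockout, against 1.15% of all tested genes called, and the median log2 fold change was 0.05 against -0.0033 over all tested genes. Gata3, a zinc finger factor that cooperates with E proteins in thymocytes and is also one of their targets, had normalized counts of 1799, 1725, 1643 and 1618 in control and 2601, 2331, 2380 and 2205 in knockout libraries. Its groups were far apart, with a log2 fold change of 0.49 (SE 0.0594, edgeR adjusted p = 5.245e-04). Cbfa2t3, an ETO-family co-repressor that docks on E proteins, rose from 8.91 ± 4.04 to 27.9 ± 5.33 normalized counts (log2 fold change 1.63, edgeR adjusted p = 0.0338). It lost the threshold when control 1, 2 or 4 or knockout 1, 3 or 4 was left out, which left Gata3 as the 1 called gene of the list. The co-activator genes Ep300 and Crebbp, whose products E proteins recruit, had log2 fold changes of 0.14 and 0.08 and did not pass.

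A further list held 26 genes taken as positive targets of E proteins in T cell development. Of these 22 were tested, 2 were higher and 0 lower in knockout, beside the 1.15% called among all tested genes, and the median was -0.04. The higher ones were Gata3, already counted among the cofactors, and Socs3, a feedback inhibitor of cytokine receptors. The direction in which E proteins act on each listed gene in these cells was not tested. Socs3 had normalized counts of 1077, 903, 947.4 and 1163 in control and 1594, 1435, 1558 and 1690 in knockout libraries. Every knockout value was above every control value, with a log2 fold change of 0.62 (SE 0.0797, edgeR adjusted p = 9.593e-04). Of the 22 log2 fold changes 10 were positive, these 2 included, and 12 negative, and 5 of the 22 did not overlap between groups, against 7.04% of all genes. The classical double-positive stage targets Rag2 and Ptcra were at no more than 0.142 and 0.101 CPM and were not tested.

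Signals upstream of Id genes were read from 28 genes for TCR-induced factors, TGF-beta and BMP receptors and SMADs, STAT5 and Foxo1, of which 26 were tested. The single called gene, beside 1.15% of all tested genes, was lower in knockout, and the median was -0.05. It was Egr1, a TCR-induced zinc finger factor known to act on Id3 in thymocytes. Its normalized counts were 6196, 6854, 5780 and 5230 in control and 4921, 4475, 4687 and 3816 in knockout libraries, without overlap. Egr1 fell by 0.43 on the log2 scale (SE 0.0889, edgeR adjusted p = 0.0422), and the call was lost, leaving 0 of the list, when control 1, 2 or 3 or knockout 2, 3 or 4 was left out. Its relatives Egr2 and Egr3 had log2 fold changes of -0.13 and -0.14 and did not pass. Stat5a, a transducer of cytokine signals, went from 4641 to 4114 normalized counts (-0.17, edgeR adjusted p = 0.208), and its neighbour Stat5b was at 0.06.

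Other factors that share the dimer or the motif gave no call. Of 23 further helix-loop-helix genes 4 were tested, 0 passed with edgeR or with DESeq2, 1 had an unadjusted p under 0.05, and the median was -0.01. That gene was Hes6, a Hes relative, at 725 and 635.7 mean normalized counts (log2 fold change -0.19, edgeR adjusted p = 0.403). Hey1, a Notch-induced repressor and next in p, had -0.39 with an SE of 0.290. Of 25 ZEB, Snail and basic helix-loop-helix zipper genes, whose products bind E-box sequences, 20 were tested, 0 passed with edgeR or DESeq2, 3 had an unadjusted p under 0.05, and the median was 0.03. Zeb2, a repressor that acts in terminal effector CD8+ cells, was at 25.95 and 14.91 mean normalized counts (-0.80, SE 0.283, edgeR adjusted p = 0.279), and its paralogue Zeb1 at 3526 and 3916 (0.15, edgeR adjusted p = 0.295).

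Genes of the innate-like, effector and follicular fates that the E/Id balance is known to limit were the list with the most calls. Of 27 genes 21 were tested, 3 were higher and 5 lower in knockout, where 1.15% of all tested genes were called in either direction. The median was -0.22, against -0.0033 over all tested genes, with 16 negative and 5 positive values. Eomes, the T-box factor of memory and innate-like CD8+ cells, was at 413.4, 457.9, 364.5 and 528.2 in control and 150.6, 213.5, 202 and 170.6 normalized counts in knockout libraries, less than the control minimum in each (log2 fold change -1.26, edgeR adjusted p = 1.699e-04). The chemokine gene Ccl5 (-2.39) and the chemokine receptor genes Cxcr3 (-1.55) and Cxcr6 (-0.85) were also lower, with edgeR adjusted p of 6.033e-04, 0.00356 and 0.00413. Icos, a costimulatory receptor of follicular helper cells, was lower by a small margin (-0.24, edgeR adjusted p = 0.0452) and lost the threshold when any 1 library was left out. The 3 higher genes were Klrb1c (2.62), an NK receptor gene, Il18r1 (0.85), a receptor chain for IL-18, and Bcl6 (0.60), the repressor that directs follicular helper cells, with edgeR adjusted p of 0.001486, 0.00109 and 0.00223. Eomes and Klrb1c are also 2 of the 6 NK markers, whose sums are given above, and several of these genes were already known to differ in these data when the list was made. The part of other cell types in these values was not tested.

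**Figure D4:**
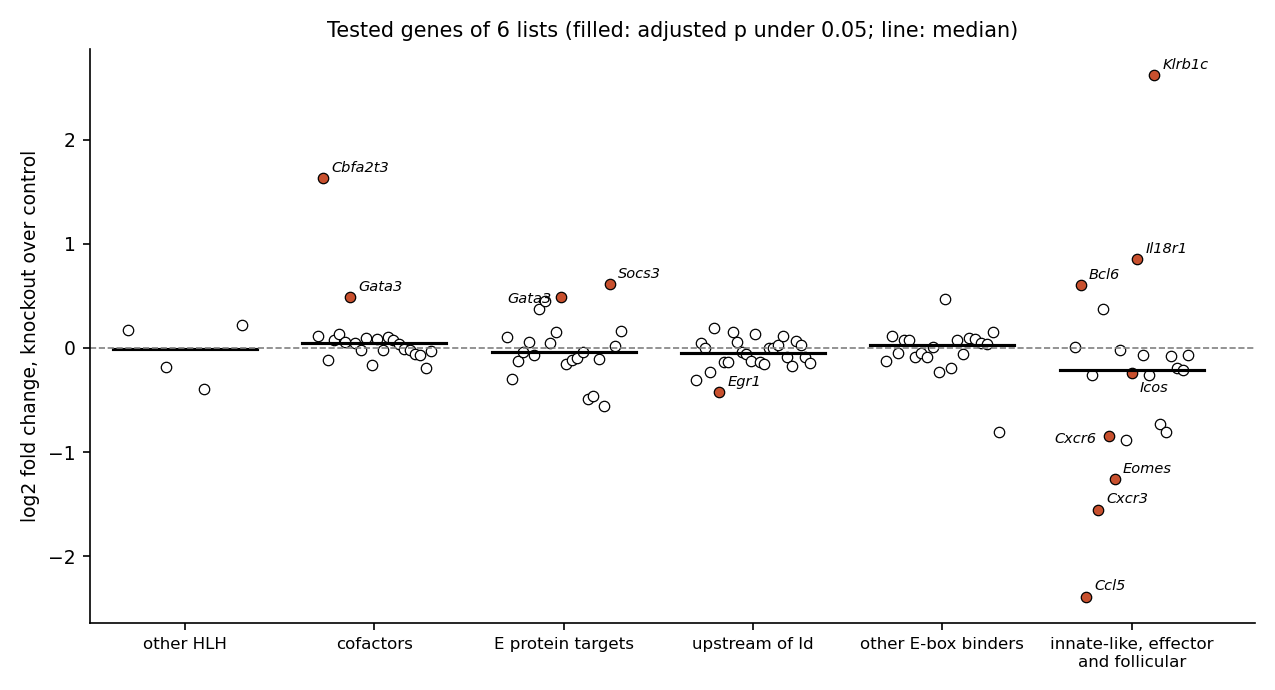
Log2 fold change of knockout over control for each tested gene of 6 lists, with filled and named points for an edgeR adjusted p under 0.05 and a line at each list's median. Most genes lie near 0, and the calls stand at Gata3 and Cbfa2t3 among cofactors, Gata3 and Socs3 among E protein targets, Egr1 upstream of Id genes, and 8 genes of the last list.

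Genes whose log2 CPM followed the members most closely over the 8 libraries were named as a description, among up to 12675 other genes with a mean of at least 1 CPM. For Id3 they were Senp5, Trav7d-4 and Sdf2 (Pearson r 0.976, 0.962 and 0.960), and for Id2 they were Cry1, Rtn4rl1 and Nop16 (0.979, 0.977 and 0.965). For Tcf12 they were Dcaf8, Gm17066 and Camk2d (0.984, 0.982 and 0.982), for Tcf3 Grn, Snora69 and Scaf11 (0.958, 0.945 and 0.941), and for Tcf4 Gm37233, Ppm1b and Kcnc1 (0.962, 0.951 and 0.945). For Id1, with few counts, they were Trmu, Tmem11 and Gm12346 (0.914, 0.910 and 0.908). None of these 18 genes belongs to the lists above. With 8 points that share libraries, depth and the group contrast, such values describe these libraries alone.

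The 3 genes with an unadjusted p under 0.05 kept their direction in every setting tried. The log2 fold change of Id3 ranged from -0.31 to -0.22, that of Id2 from -0.46 to -0.25 and that of Tcf12 from 0.10 to 0.16. Tcf3 (0.002 to 0.04) and Tcf4 (0.03 to 0.11) were also positive throughout and were never called.

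**Figure D5:**
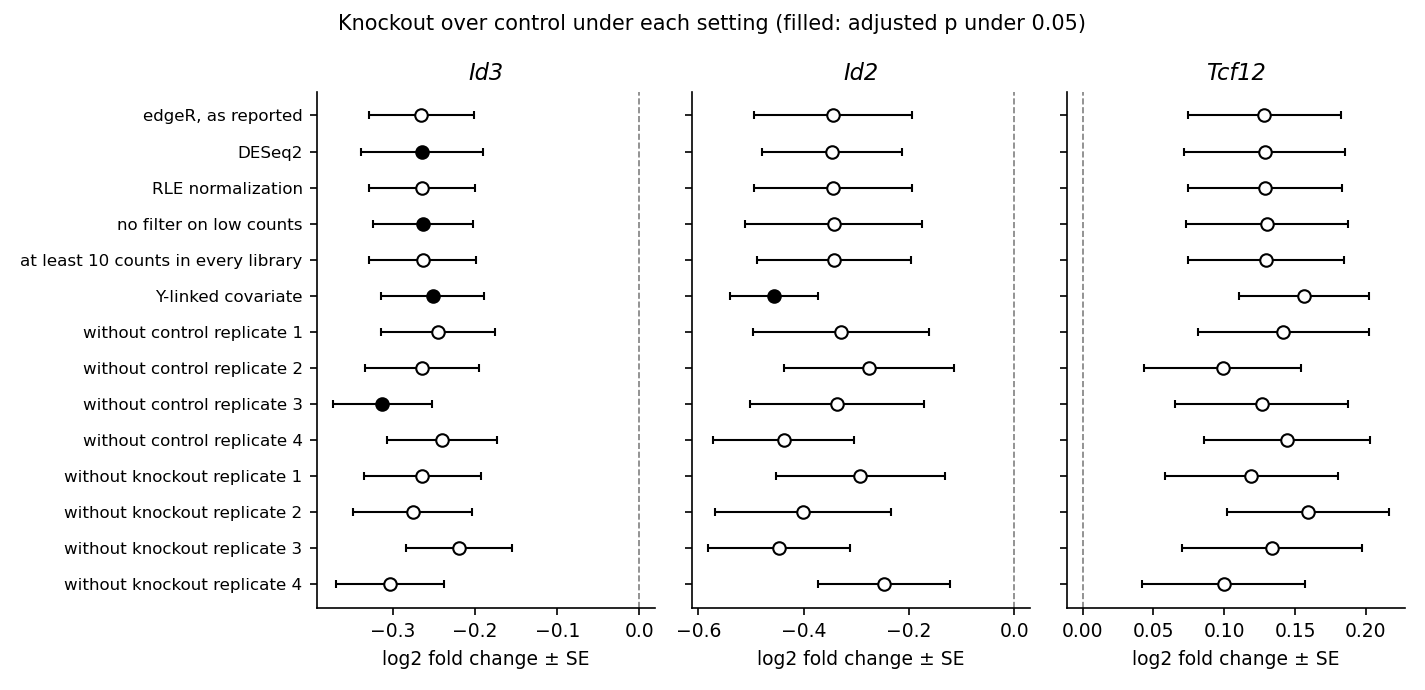
Log2 fold change (points) ± SE (bars) of Id3, Id2 and Tcf12 in the edgeR fit as reported, with other tools, normalization, filters and covariate, and without each library in turn, with filled points for an adjusted p under 0.05 and the replicate block not drawn. All points for Id3 and Id2 lie below 0 and all for Tcf12 above 0, and the filled points drawn are DESeq2, no filter, the Y-linked covariate and control 3 left out for Id3, and the Y-linked covariate for Id2.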

How the data were processed

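RNA of CD8SP thymocytes from 4 control and 4 knockout mice was sequenced from stranded total RNA libraries, 1 per mouse, and groups came from the sample titles. The authors trimmed with cutadapt, mapped with STAR against GRCm38.p4 (GENCODE release M9), assigned reads to genes with featureCounts, and deposited the raw counts of 47937 genes. The strand setting of the counting is not given in the sources used here. Symbols, positions and exonic lengths came from GENCODE M21 (GRCm38), which matched 98.5% of the identifiers.

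Counts were filtered with filterByExpr, scaled by TMM and compared with edgeR 4.0.16 (glmQLFit, robust, and glmQLFTest, 2-sided, no covariate; R 4.3.3, limma 3.58.1), with Benjamini-Hochberg adjustment over 14633 genes and a threshold of 0.05. Normalized counts are counts over the TMM-scaled library size, times the mean total of 28941600. SE is the absolute log2 fold change over the square root of F, and intervals are 95%. The floor of 3 counts covers counting error only. By chi-square, replicates of a group differed by 9.26 to 32.3 per gene, so none was a duplicate. DESeq2 1.42.0, other scaling and filters, a Y-linked covariate, a replicate block and leaving out each library were alternatives. The code was tested on simulated data.

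The genes named are the 6 members, Ndrg3, each listed gene past the threshold (where fewer than 2 passed, those with the smallest p up to 2), markers past the threshold and the highest marker of a list, and the 3 genes most correlated with each member. Ep300, Crebbp, Egr2, Egr3, Stat5b, Rag2, Ptcra, Siglech, Trdc, Klf2, Ccr7, S1pr1, Themis, Cd3e, Cd3g, Ncr1, Klra8, Klra4 and Id4 were added after their values were seen. The members and lists were chosen with earlier results of these data known. 1 promoter site of a member is not reported here.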

Additional observations from a re-analysis of the deposited data

Results flagged for a closer look

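In each group of 4 libraries, the highest and lowest library of 24 sets of values was compared with its neighbours by Dixon's ratio, for which chance gives about 1 flag in 20 sets, and 2 stood apart. The ratio of Tcf12 to Tcf3 in TPM was 0.3061 in control replicate 2 and 0.346 to 0.353 in the other control libraries, a gap of 0.85 of the group's range. This library carries Y-linked transcripts and had the highest Tcf3 and the lowest Tcf12 normalized count of the control group. The mitochondrial share of counts was 0.6364% in control replicate 4 and 0.803% to 0.820% in the other control libraries, a gap of 0.904 of the range. The same library had the lowest Id2 value of the control group. Knockout replicate 4 likewise had the lowest mitochondrial share (0.5711%) and the lowest Id2 value (1009) of its group. The part of this share in the Id2 values was not tested.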

How the results depend on the processing

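The labels number the replicates 1 to 4 in both groups, but same-numbered libraries deviated together by r = 0.181, 0.415, -0.055 and 0.301. The libraries numbered 3 thus did not deviate together, and 6 of 8 libraries correlated best with their own number. The numbers that head the count columns lie close together for replicate 1 of both groups, and likewise for replicate 4. Those of replicates 2 and 3 of both groups form 1 run. What these runs stand for is not stated, and they were not modelled. With the replicate block, 800 genes were called in place of 168. The edgeR adjusted p was 3.77e-04 for Id3 (log2 fold change -0.27), 0.0024 for Id2 (-0.35) and 0.0484 for Tcf12 (0.128), each of which thus passed. Klf2, Ccr7 and S1pr1, lower in knockout, passed as well (0.000472, 0.000607 and 0.0167). So did Themis, higher in knockout (log2 fold change 0.16, edgeR adjusted p 0.0219). The calls with the block were 4 among cofactors, 6 among E protein targets, 2 among E-box binding genes and 4 upstream of Id genes. With the Y-linked covariate 437 genes were called, with 4 among cofactors, 4 among E protein targets, 1 among E-box binding genes, 2 upstream of Id genes and 13 of the fate genes, and Id2 (-0.46, adjusted p 0.0103) and Id3 (-0.25, 0.0429) passed. DESeq2 called 309 genes, 4 E protein targets and Id3 (-0.27, 0.0236), and no filter called 274 genes and Id3 (-0.26, 0.00841). With at least 10 counts in every library, 1 cofactor and 5 fate genes were called, since Cbfa2t3, Ccl5 and Klrb1c did not pass that filter and Icos lost its call, and Id1 gave no value.

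Leaving out single libraries gave 90 to 158 called genes (100, 110, 104, 106, 90 and 107 without control 1, 3 and 4 and knockout 1, 3 and 4), 1 to 2 cofactors and 0 to 1 genes upstream of Id genes. Id3 ranged from -0.31 to -0.22 and passed without control 3 (-0.3131), and Id1 ranged from -0.14 to 0.23, with negative values without control 1 (-0.1436), knockout 1 (-0.005037) and knockout 4 (-0.1313). Id2 ranged from -0.45 to -0.25 and Tcf12 from 0.10 to 0.16, and neither passed. The cause of these differences was not tested. The depth limits Id1, with 9 to 21 counts per library.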
